A study of Danio rerio with 6 samples.

Results

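The glucocorticoid receptor axis was followed through 10 genes, taken by name from the count tables: the hormone precursor gene pomca, the steroid-inactivating enzyme genes hsd11b2 and hsd20b2, the receptor genes nr3c1 and nr3c2, and the receptor-linked genes fkbp5, tsc22d3, klf9, cebpd and sgk1. All 10 names were found, each on 1 of 32053 rows, and all 10 were among the 23167 rows tested. The zebrafish were 5 days past fertilization, and RNA was taken from forceps-dissected tissue labelled intestinal. Exposed embryos, titled BP_3, were held in a solution of 2 mg/L BP-3, in common use the short name of the ultraviolet filter benzophenone-3, and the other embryos, titled WT, are labelled control; no mutation or transgene is named for either group. Each group had 3 libraries. Separate clutches or pools are not stated for these, so p-values weigh the group difference only against the spread between these libraries. Under treatment, exposed replicates 1, 2 and 3 read BP-3, then BP-4, then BP-5, whereas titles and protocol name BP-3 alone, and the titles were followed.

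In fish the stress hormone is cortisol. Corticotropin, cut from the precursor that pomca encodes, drives its synthesis in the interrenal gland, the counterpart of the mammalian adrenal cortex. Cortisol enters cells and binds the glucocorticoid receptor, a transcription factor held ready by the chaperone Hsp90 and its partners. The bound receptor moves to the nucleus and turns on genes that limit the hormone's own action, control metabolism and restrain inflammation. The enzyme of hsd11b2 turns cortisol into inactive cortisone, and that of hsd20b2 acts on cortisone. Only RNA was measured here, and neither cortisol nor protein was.

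Libraries held 24000785 to 41726516 counts in BP-3 and 23567603 to 36961866 in control, and 1 count in a library was worth 0.0243 to 0.0413 CPM, the count scaled to library size with edgeR's TMM factors. The gut markers fabp2, vil1 and cdx1b had 953, 198 and 19.2 CPM in BP-3 libraries and 792, 183 and 19.6 CPM in control libraries, so defining markers of the labelled tissue were present. Such gut markers alone do not show how much of the RNA was intestinal. Markers of other tissues were abundant as well, with 12 skeletal muscle genes summing to between 67370 and 80580 CPM. The epidermis gene krt4 had 10100 CPM in BP-3 libraries and 11250 CPM in control libraries. The retina gene opn1sw1 had 1909 CPM in BP-3 libraries and 1982 CPM in control libraries, more than fabp2. The 12 anterior enterocyte genes together had 9764 ± 151 CPM in BP-3 libraries, against 6450 ± 346 CPM in control libraries, and the 11 hepatocyte genes 6183 ± 441 CPM in BP-3 libraries, against 3669 ± 303 CPM in control libraries (SD, n = 3). Of all rows, 6.26% rose and 4.29% fell, which is the background for the counts of this paragraph. In the enterocyte and hepatocyte lists, 6 of 12 and 7 of 11 genes rose and 0 and 1 fell. Their median log2 fold changes were 0.46 and 0.45, and abundant genes weigh most in such sums. Of 12 ionocyte and kidney genes 3 rose and 0 fell, with sums of 601 ± 9.48 CPM in BP-3 libraries, against 538 ± 13.4 CPM in control libraries (SD, n = 3). In other tissue lists 5 of 12 retina and lens genes, 4 of 12 central nervous system genes and 3 of 12 epidermis genes fell and 0 rose, and the sums in BP-3 libraries were 0.874, 0.852 and 0.897 times those of control libraries. The 5 were the lens genes cryaa, cryba1b, mipa, bfsp2 and crygm2d1, while the retina gene rho did not pass (edgeR adjusted p = 0.0536). The part of these tissue shares in the differences described here was not tested, and in tissue RNA a change in the number of cells of a type cannot be told apart from a change in RNA per cell.

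The axis split into genes that moved and genes that did not pass the test. Transcripts of fkbp5, whose product is a brake on the receptor, rose 2.49-fold. Those of the steroid-inactivating enzyme genes hsd20b2 and hsd11b2 rose 2.1-fold and 1.39-fold. Transcripts of the receptor gene nr3c1 were 1.28-fold lower and those of the transcription factor gene cebpd 1.79-fold lower. The other 5 genes, nr3c2, tsc22d3, klf9, sgk1 and pomca, had log2 fold changes between -0.05 and 0.11. In edgeR's quasi-likelihood test, adjusted over all rows by the Benjamini-Hochberg method, 5 of 10 genes passed an adjusted p of 0.05, where 10.6% of all rows did. Of these, 3 were higher and 2 lower, against 6.26% and 4.29% of all rows. In the same 5 genes, the values of the BP-3 and control libraries did not overlap, as in 31.0% of all rows. The median log2 fold change of the 10 genes was 0.03, beside 0.00 over all rows tested. The genes and the lists below were chosen with earlier results of these data known. Their shares beside all rows are therefore descriptions and test nothing.

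**Figure D1:**
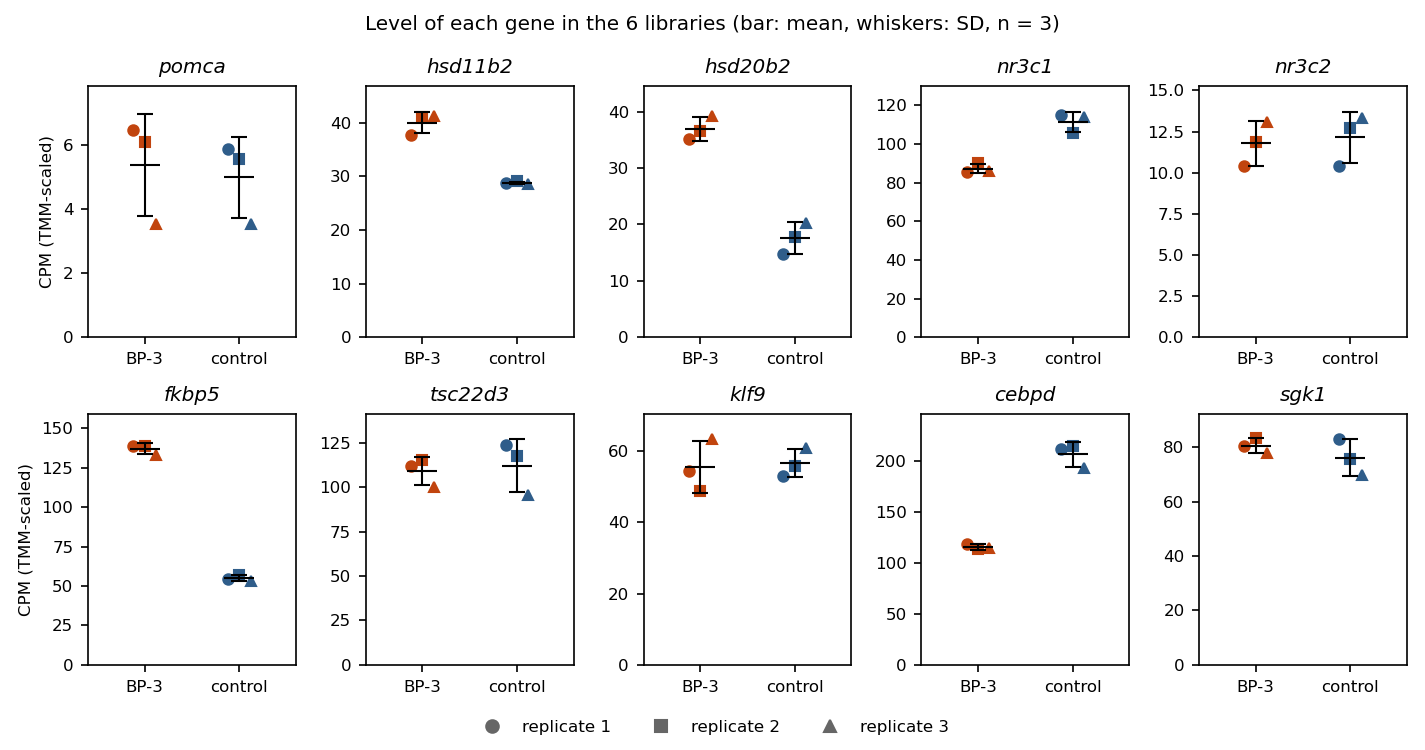
Level of each gene in every library, as TMM-scaled CPM from 0, with 1 point per library (replicates by marker shape), BP-3 left and control right, and bars for the mean with SD of 3 libraries. The points for fkbp5, hsd20b2, hsd11b2, nr3c1 and cebpd are separated by group, while for pomca, tsc22d3 and klf9 replicate 3 lies apart from replicates 1 and 2 in both groups.

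Of the 10 genes, the hormone precursor acts earliest in the axis. The pomca transcript, which encodes corticotropin and melanocyte-stimulating hormones, had 6.48, 6.10 and 3.55 CPM in BP-3 libraries 1, 2 and 3, against 5.89, 5.56 and 3.55 CPM in control libraries 1, 2 and 3. The groups overlapped, and replicate 3 was the lowest of both groups. The log2 fold change was 0.11 with a 95% interval of -0.43 to 0.65 (edgeR adjusted p = 0.823), the widest interval of the 10 genes. Without replicate 3 of either group it was 0.14 (edgeR adjusted p = 0.573). The second precursor gene pomcb lay at 0.479 ± 0.369 CPM in BP-3 libraries, against 0.463 ± 0.148 CPM in control libraries (SD, n = 3). Its log2 fold change was -0.07 ± 0.54 (SE; edgeR adjusted p = 0.956). The gene of the hypothalamic releasing hormone, crhb, had 8.91 ± 0.721 CPM in BP-3 libraries, against 8.66 ± 0.910 CPM in control libraries (SD, n = 3).

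Of the enzymes that remove cortisol, hsd11b2 oxidises it to inactive cortisone. It had 37.7, 41.0 and 41.2 CPM in BP-3 libraries 1, 2 and 3, against 28.7, 29.0 and 28.7 CPM in control libraries 1, 2 and 3. Every BP-3 library lay above every control library, and the control libraries were close together. The summed ionocyte and kidney markers were 1.12-fold higher in BP-3, with a median log2 fold change of 0.04 over that list. For hsd11b2 a log2 fold change of 0.47 ± 0.07 was fitted (SE; edgeR adjusted p = 0.0031). With the 1 exposed library whose treatment field reads BP-3 set alone against the controls it was 0.39 and no longer passed (edgeR adjusted p = 0.136).

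The next enzyme, hsd20b2, reduces cortisone to a 20-hydroxylated product that zebrafish excrete. Its level was 35.1, 36.5 and 39.3 CPM in BP-3 libraries 1, 2 and 3, against 14.7, 17.8 and 20.3 CPM in control libraries 1, 2 and 3. All BP-3 values were higher than all control values, and the control libraries spread more widely than the exposed ones. Its log2 fold change was 1.07 ± 0.11 (SE; edgeR adjusted p = 0.000366), and it ranged from 0.96 to 1.19 over the 15 alternative fits, in which it always passed.

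Some other genes of the stress axis and of steroid handling rose too. Of 28 tested genes of the stress axis and corticosteroid synthesis, 6 rose and 0 fell, or 21.4% and 0%, beside 6.26% and 4.29% of all rows, and their median log2 fold change was 0.06. Apart from hsd20b2 and hsd11b2 these were 4 genes. The 5-alpha-reductase gene srd5a2a had 30.8 ± 3.99 CPM in BP-3 libraries, against 17.8 ± 1.99 CPM in control libraries (SD, n = 3; edgeR adjusted p = 0.00234). A relative of the enzyme that regenerates cortisol in mammals, hsd11b1la, had 52.3 ± 4.50 CPM in BP-3 libraries, against 39.1 ± 2.06 CPM in control libraries (SD, n = 3; edgeR adjusted p = 0.0118). The electron carrier gene fdx1 had 32.6 ± 4.53 CPM in BP-3 libraries, against 23.7 ± 1.36 CPM in control libraries (SD, n = 3; edgeR adjusted p = 0.0217). The releasing hormone receptor gene crhr1 had 7.07 ± 0.471 CPM in BP-3 libraries, against 4.39 ± 1.07 CPM in control libraries (SD, n = 3; edgeR adjusted p = 0.0316). The related genes srd5a1, fdx1b and crhr2 did not pass (edgeR adjusted p = 0.406, 0.642 and 0.248). Their log2 fold changes were 0.39, 0.34 and -0.41. Leaving out BP-3 replicate 2 reduced the 6 calls to 3, with hsd11b1la, fdx1 and crhr1 lost, and crhr1 was also lost without BP-3 replicate 1 or 3 or control replicate 1 or 2. The call of hsd11b1la was lost without BP-3 replicate 1 as well, and that of fdx1 without control replicate 1 or 2. The summed hepatocyte and enterocyte markers were 1.68-fold and 1.51-fold higher in BP-3, with median log2 fold changes of 0.45 and 0.46 over those lists. The part of these markers in the rises of these genes, and in that of fkbp5, was not tested.

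Genes that make cortisol in the interrenal gland did not pass the test. Apart from star they had low levels, at which sizeable changes can be missed. For example, cyp11a2 had 1.08 CPM in BP-3 libraries, against 0.917 CPM in control libraries, and a log2 fold change of 0.26 ± 0.40 (SE). The synthesis genes cyp11a1 and hsd3b2 were too low to be tested. The cholesterol carrier gene star had 15.0 ± 2.19 CPM in BP-3 libraries, against 11.3 ± 1.52 CPM in control libraries (SD, n = 3; edgeR adjusted p = 0.0812). It passed without BP-3 replicate 3 (edgeR adjusted p = 0.0349). The 11-beta-hydroxylase gene cyp11c1, which completes cortisol synthesis, lay at 2.21 ± 0.11 CPM in BP-3 libraries, against 2.11 ± 0.0913 CPM in control libraries (SD, n = 3). The corticotropin receptor gene mc2r was below the filter on low counts, with 4, 2 and 8 counts in BP-3 libraries 1, 2 and 3, against 0 in each control library. The 9 tested interrenal markers together had between 25.7 and 30.8 CPM in BP-3 libraries and between 24.4 and 26.4 CPM in control libraries. Of these, 0 of 9 passed the threshold, beside 10.6% of all rows. The 7 tested pituitary markers, pomca among them, together had between 22.6 and 25.8 CPM in BP-3 libraries and between 19.1 and 24.7 CPM in control libraries, and 1 of 7 rose, beside 6.26% of all rows. This was the gonadotropin gene lhb, with 29, 25 and 31 counts in BP-3 libraries 1, 2 and 3, against 5, 0 and 0 in control libraries 1, 2 and 3 (edgeR adjusted p = 0.00939). The fitted log2 fold change was 3.90 and became 7.755 without control replicate 1, which leaves the control libraries at 0 counts, so neither value is a reliable size. The call was lost with the exposed library labelled BP-3 alone (edgeR adjusted p = 0.166).

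The glucocorticoid receptor gene nr3c1 moved the other way. It had 85.8, 89.99 and 85.9 CPM in BP-3 libraries 1, 2 and 3, against 115, 106 and 114 CPM in control libraries 1, 2 and 3. The highest exposed library lay below the lowest control library, as it also did for the summed retina and lens, nervous system and epidermis markers. For retina and lens the margin was small, at 6601 against 6621 CPM. The part of these tissue shares in the fall of nr3c1 was not tested. For nr3c1 the log2 fold change was -0.35 ± 0.07 (SE; edgeR adjusted p = 0.0102), the smallest of the 5 that passed. The call was lost without BP-3 replicate 1 (edgeR adjusted p = 0.0504), without control replicate 1 (0.0547) and with the exposed library labelled BP-3 alone (0.168), while the log2 fold change stayed between -0.39 and -0.33 in all 15 alternative fits.

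The mineralocorticoid receptor gene nr3c2 encodes the other receptor that binds cortisol in fish. It had 10.4, 11.8 and 13.1 CPM in BP-3 libraries 1, 2 and 3, against 10.4, 12.7 and 13.3 CPM in control libraries 1, 2 and 3. The groups overlapped over nearly their whole range, and the log2 fold change was -0.05 with a 95% interval of -0.33 to 0.24 (edgeR adjusted p = 0.858). The related steroid receptor genes did not pass either: of 5 tested, for androgen, progesterone and oestrogen receptors, 0 rose and 0 fell. The androgen receptor gene ar had 5.01 ± 0.793 CPM in BP-3 libraries, against 5.20 ± 0.146 CPM in control libraries, and the progesterone receptor gene pgr 0.515 ± 0.0983 CPM in BP-3 libraries, against 0.230 ± 0.0829 CPM in control libraries (SD, n = 3).

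The largest change among the 10 genes was that of fkbp5, whose product binds Hsp90 and lowers the receptor's affinity for hormone, and which the receptor itself induces in mammals and fish. It had 139, 139 and 133 CPM in BP-3 libraries 1, 2 and 3, against 54.4, 57.1 and 53.3 CPM in control libraries 1, 2 and 3. The groups were far apart compared with the spread within each. For fkbp5 the log2 fold change was 1.32 ± 0.07 (SE; edgeR adjusted p = 4.43e-06), and by p-value it ranked 12 among the 23167 rows. It passed in all 15 alternative fits, with log2 fold changes from 1.30 to 1.35. Its close relative fkbp4, which on the same chaperone promotes receptor activity, had 76.5 ± 3.23 CPM in BP-3 libraries, against 72.6 ± 0.892 CPM in control libraries (SD, n = 3; edgeR adjusted p = 0.533).

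Transcripts of chaperones that hold the receptor rose with fkbp5 in part. Of 30 tested receptor, chaperone and cofactor genes, 8 rose and 2 fell, or 26.7% and 6.67%, beside 6.26% and 4.29% of all rows, with a median log2 fold change of 0.07. Outside the 10 genes, 7 of 27 rose and 1 fell. The summed CPM of all 30 in BP-3 libraries was 0.98 times that of control libraries. The stress-inducible Hsp90 genes hsp90aa1.1 and hsp90aa1.2 rose 1.91-fold and 1.68-fold (edgeR adjusted p = 6.78e-05 and 0.000555), although reads may be split unevenly between such close copies. The p23 co-chaperone genes ptges3a and ptges3b rose 1.57-fold and 1.46-fold, and the kinase co-chaperone gene cdc37 1.36-fold. The constitutive form hsp90ab1 had 2587 ± 62.1 CPM in BP-3 libraries, against 3088 ± 206 CPM in control libraries (SD, n = 3; edgeR adjusted p = 0.0645); it passed as lower by DESeq2 (adjusted p = 0.0106) and without control replicate 3 (edgeR adjusted p = 0.0218). The 2 that fell were nr3c1 and nrip1b, a corepressor gene named after its values were seen, and without BP-3 replicate 1 or control replicate 1 neither passed. The call of nrip1b was lost without BP-3 replicate 2 or control replicate 2 as well.

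Among the receptor's target genes, cebpd moved against fkbp5. It encodes a transcription factor of acute inflammatory and metabolic responses that glucocorticoids induce in mammals. It had 118, 114 and 114.5 CPM in BP-3 libraries 1, 2 and 3, against 212, 215 and 193 CPM in control libraries 1, 2 and 3. The exposed libraries lay close together, below all controls, beside summed retina and lens, nervous system and epidermis markers at 0.874, 0.852 and 0.897 times the control level. The part of these tissue shares in the fall of cebpd was not tested. For cebpd the log2 fold change was -0.84 ± 0.07 (SE; edgeR adjusted p = 9.9e-05), and it ranged from -0.89 to -0.80 over the alternative fits, all of which called it. Its relative cebpb was lower as well, with 26.4 ± 2.89 CPM in BP-3 libraries, against 42.6 ± 4.58 CPM in control libraries (SD, n = 3; edgeR adjusted p = 0.0032).

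The remaining targets did not pass. The gene tsc22d3 encodes a leucine zipper protein that mediates anti-inflammatory actions of glucocorticoids in mammals. It had 112, 115 and 100 CPM in BP-3 libraries 1, 2 and 3, against 123, 117 and 95.4 CPM in control libraries 1, 2 and 3. Replicate 3 was the lowest in both groups, and the groups overlapped. The log2 fold change was -0.04 with a 95% interval of -0.27 to 0.19 (edgeR adjusted p = 0.850), and without both replicate 3 libraries it was -0.08 (edgeR adjusted p = 0.338).

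The gene klf9 encodes a zinc finger transcription factor that the receptor induces in zebrafish larvae. It had 54.3, 48.8 and 63.3 CPM in BP-3 libraries 1, 2 and 3, against 53.1, 55.7 and 60.9 CPM in control libraries 1, 2 and 3. Here replicate 3 was the highest in both groups. The log2 fold change was -0.03 with a 95% interval of -0.25 to 0.20 (edgeR adjusted p = 0.892), and without both replicate 3 libraries it was -0.08 (edgeR adjusted p = 0.534).

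The kinase gene sgk1, whose product regulates ion channels and transporters, had 80.4, 83.2 and 77.7 CPM in BP-3 libraries 1, 2 and 3, against 83.1, 75.5 and 69.7 CPM in control libraries 1, 2 and 3. Control replicate 1 lay as high as the exposed libraries. The log2 fold change was 0.08 with a 95% interval of -0.10 to 0.26 (edgeR adjusted p = 0.581). For tsc22d3, klf9 and sgk1 the intervals leave out a rise of the size seen for fkbp5, whose interval began at 1.17.

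**Figure D2:**
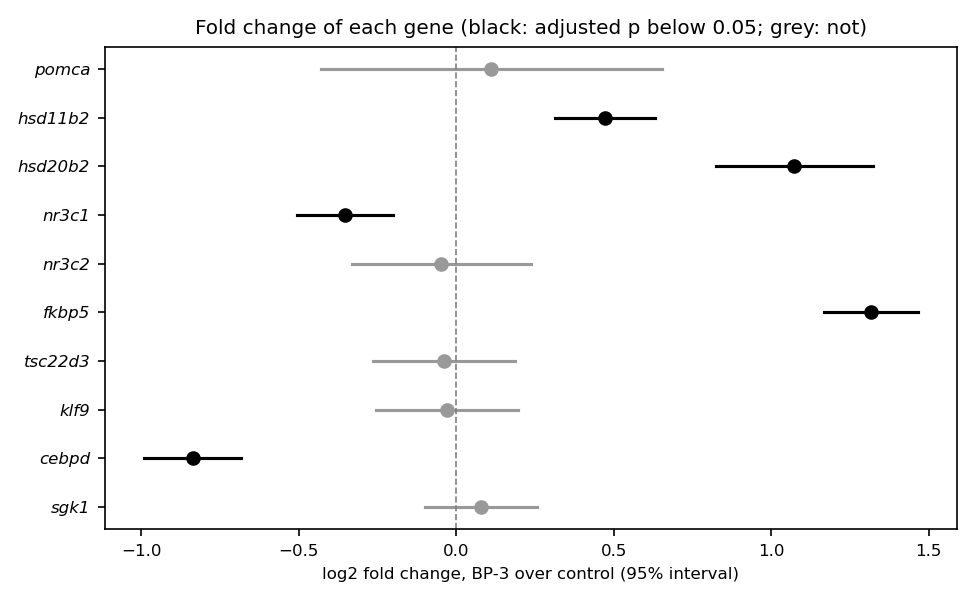
Log2 fold change, BP-3 over control, of each gene with its 95% interval from the edgeR fit, in black where the adjusted p was below 0.05 and in grey where it was not. The interval of fkbp5 (1.17 to 1.47) lies apart from those of tsc22d3, klf9 and sgk1, whose upper ends are 0.19, 0.20 and 0.26, while pomca has the widest interval (-0.43 to 0.65).

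A wider list of 54 tested genes reported elsewhere as receptor targets, in mammals or fish, moved both ways, with 7 higher and 16 lower. That is 13.0% and 29.6% of the list, beside 6.26% and 4.29% of all rows, and the median log2 fold change was -0.07. The genes hsd11b2 and hsd20b2 are counted both here and in the stress axis list, and fkbp5 both here and in the receptor list. Outside the 10 genes, 4 rose and 15 fell. The gluconeogenesis gene pck1 had 232 ± 15.2 CPM in BP-3 libraries, against 116 ± 14.01 CPM in control libraries (SD, n = 3; edgeR adjusted p = 0.000237). The other 3 that rose, named after their values were seen, were the glucose-6-phosphatase gene g6pca.1 at 2.02-fold, the cell cycle inhibitor gene cdkn1a at 1.75-fold and the aminotransferase gene agxtb at 1.61-fold. The close copy g6pca.2 ran the other way without passing, with 45.0 ± 2.45 CPM in BP-3 libraries, against 61.3 ± 14.2 CPM in control libraries (SD, n = 3; edgeR adjusted p = 0.0778), and reads may be shared between the copies. It passed as lower by DESeq2 (adjusted p = 0.0191) and without control replicate 3 (edgeR adjusted p = 0.00288). Liver expresses both pck1 and g6pca.1 strongly. With summed hepatocyte and enterocyte markers 1.68-fold and 1.51-fold higher in BP-3, their part in the rises of pck1 and g6pca.1 was not tested.

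Among the target genes that fell, fbxo32, a ubiquitin ligase gene of muscle atrophy, had 17.7 ± 0.803 CPM in BP-3 libraries, against 51.0 ± 4.44 CPM in control libraries (SD, n = 3; edgeR adjusted p = 8.32e-06). The MAP kinase phosphatase gene dusp1 had 60.1 ± 3.95 CPM in BP-3 libraries, against 138 ± 11.7 CPM in control libraries (SD, n = 3; edgeR adjusted p = 3.87e-05). The NF-kappaB inhibitor gene nfkbiaa had 27.5 ± 0.925 CPM in BP-3 libraries, against 45.8 ± 1.75 CPM in control libraries (SD, n = 3; edgeR adjusted p = 0.000267). Glucocorticoids induce all of these genes in mammals. The part of the lower lens, nervous system and epidermis markers in these falls was not tested. The gene anxa1c, which fell, is counted both among the target genes and among the epidermis markers. Named after their values were seen, the muscle ligase genes trim63a and trim63b were 1.9-fold and 1.41-fold lower. Of 12 skeletal muscle markers 0 passed, beside 10.6% of all rows, and their median log2 fold change was -0.12. Their sums were 72560 ± 4510 CPM in BP-3 libraries, against 76700 ± 5510 CPM in control libraries (SD, n = 3). The part of the muscle share in the falls of these ligase genes was not tested. Of the clock genes, per1b, named after its values were seen, was lower, with 39.1 ± 2.95 CPM in BP-3 libraries, against 49.0 ± 1.56 CPM in control libraries (SD, n = 3; edgeR adjusted p = 0.0261), a call lost without replicate 1 or 2 of either group (0.0723 to 0.108) and with the exposed library labelled BP-3 alone (0.134). Its copy per1a, a target in zebrafish, missed the threshold at 19.1 ± 0.635 CPM in BP-3 libraries, against 15.4 ± 1.16 CPM in control libraries (SD, n = 3; edgeR adjusted p = 0.0505). It passed where a CPM of at least 1 in 3 libraries was required (0.0484).

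**Figure D3:**
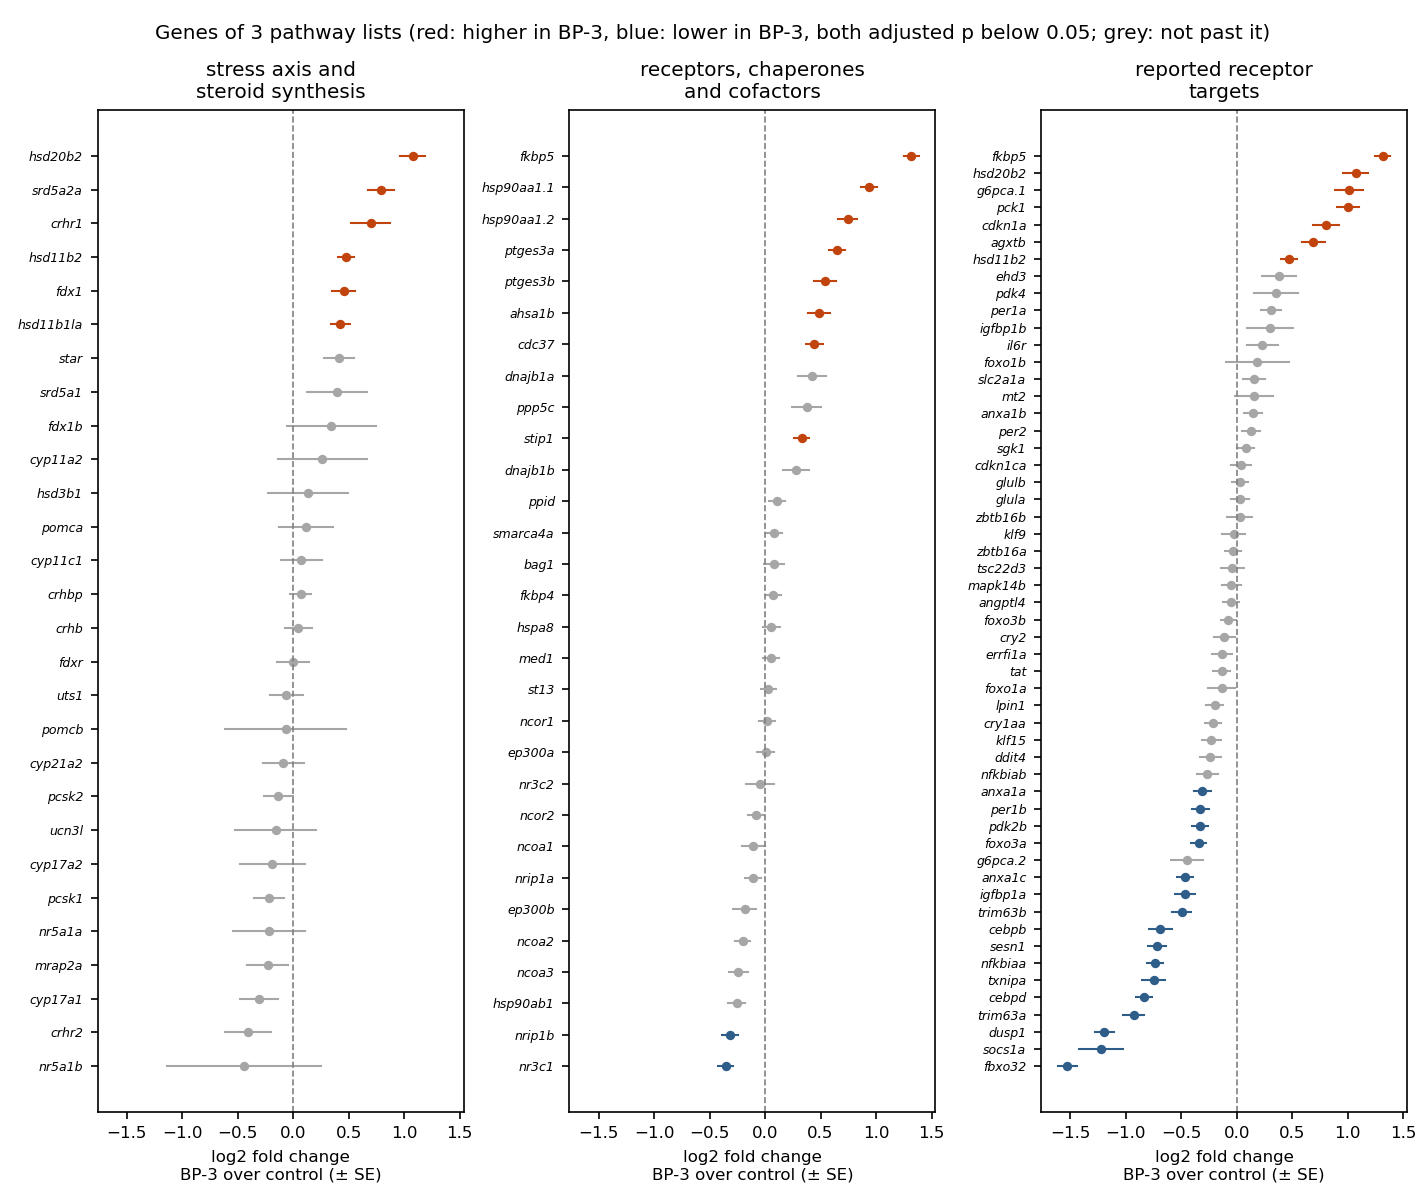
Log2 fold change, BP-3 over control, with SE, of every tested gene in 3 pathway lists, ordered by value, in red where higher and blue where lower in BP-3 at an adjusted p below 0.05 and in grey otherwise. The stress axis list has 6 red and 0 blue points of 28, the receptor and chaperone list 8 and 2 of 30, and the target list 7 and 16 of 54.

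The genes whose levels ran most like those of each changed gene were found by the root mean square difference of their log2 CPM over the 6 libraries, each centred on its own mean. Closest to fkbp5 were the ammonium transporter gene rhcgb, the carotenoid oxygenase gene bco1l and meltf, with differences of 0.0634, 0.0653 and 0.0676. For hsd20b2 they were the sterol desaturase gene sc5d, map3k2 and sfxn1 (0.0914, 0.0918 and 0.104). For hsd11b2 they were bcap31, pck2 and vps25 (0.0273, 0.0295 and 0.0321). For nr3c1 the nearest were the autophagy gene atg7, kctd7 and map4k5 (0.0171, 0.024 and 0.0287), and for cebpd they were mych, clul1 and pde6ha (0.0455, 0.0617 and 0.0622). With 2 groups of 3 libraries, such likeness rests mostly on a fold change of the same size. Among the 10 genes, tsc22d3 and sgk1 were the closest pair (0.0874), followed by nr3c2 and klf9 (0.12), and fkbp5 and cebpd were the farthest apart (1.08).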

How the data were processed

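Each library came with a deposited table of whole-number counts per gene name, not normalized by the authors. For aligner, counter, annotation and strandedness, the sources used here give nothing. Overlapping and antisense genes may therefore share reads. The build named in the submitters' processing notes was mm9, a mouse build, although row names are zebrafish symbols, so no coordinates are given. No sequences of the genes were used here.

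From these counts, rows were filtered with filterByExpr (23167 of 32053 kept), scaled by TMM and compared between 3 BP-3 and 3 control libraries, grouped by title, with edgeR 4.0.16 in R 4.3.3 (glmQLFit and glmQLFTest, no covariates). The Benjamini-Hochberg adjustment ran over every row tested, and an adjusted p below 0.05 was the threshold. Fold changes divide BP-3 by control, and 95% intervals are the fold change ± its SE times the t quantile of that test. The fit was tested on simulated data first. Alternatives were other scaling and filters, DESeq2 1.42.0, limma-voom (limma 3.58.1), a replicate block and left-out libraries. Depth limits precision, and counting error is only part of it, since PCR copies are not independent molecules.

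The genes and lists were chosen with earlier results of these data known. The naming rule took all 10 genes, up to 6 called genes of each list by adjusted p, relatives of the 10, and the 3 rows closest to each called gene whose mean log2 CPM reached 1 and whose name was no clone name. Figures were drawn with matplotlib 3.10.9.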

Additional observations from a re-analysis of the deposited data

How the results depend on the processing

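The 5 calls among the 10 genes held under DESeq2, limma-voom, both other scalings and both other filters, and no called gene changed direction in any of 15 alternatives. With the exposed library labelled BP-3 alone against the controls, 3 of 10 genes and 435 rows passed; the lone library is assumed to vary like the controls. In that fit 2, 4 and 5 genes of the stress axis, receptor and target lists rose, and 0, 0 and 6 fell. Leaving out 1 library gave 4 to 5 genes and 1084 to 2494 rows, beside 2446: 1242 without BP-3 replicate 1, 1084 without BP-3 replicate 2, 1245 without control replicate 1 and 1287 without control replicate 2. Leaving out both replicate 3 libraries gave 3894 rows and 5 genes. With the replicate block 5026 rows passed and again 5 of 10 genes, but the shared numbers do not establish pairs. Same-numbered libraries correlated in their deviations from the group mean at 0.086, 0.064 and 0.225. BP-3 replicate 2 correlated best with control replicate 1 (0.086). Both replicate 3 libraries did deviate together (0.225). Deviations from a group mean cancel within the group, so negative values with the remaining libraries follow from this and are no separate evidence. BP-3 replicate 3 gave -0.148 and -0.115 with control replicates 1 and 2. Control replicate 3 gave -0.133 and -0.129 with BP-3 replicates 1 and 2. The main fit, without a block, does not model the shared shift of the replicate 3 libraries, and the cause of that shift was not tested. Under the block star (adjusted p = 0.0066), per1a (0.0221), g6pca.2 (0.0106) and hsp90ab1 (0.00152) also passed; hsp90ab1 (0.000344), g6pca.2 (0.00118) and star (0.025) passed too without both replicate 3 libraries.

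Signs changed only for genes that never passed. The log2 fold change became 0.038 (nr3c2), -0.044 (pomca), 0.135 (pomcb) and 0.016 (ar) without BP-3 replicate 1, 0.056 (klf9) and 0.312 (pomcb) without BP-3 replicate 2, and 0.019 (tsc22d3) without BP-3 replicate 3. It became 0.035 (tsc22d3) and 0.252 (pomcb) without control replicate 1, and 0.022 (nr3c2), 0.026 (klf9), -0.071 (pomca) and -0.007 (crhb) without control replicate 3. Over the left-out libraries the values ran from -0.152 to 0.038 for nr3c2, -0.142 to 0.035 for tsc22d3, -0.132 to 0.056 for klf9, -0.071 to 0.318 for pomca, -0.781 to 0.312 for pomcb, -0.19 to 0.016 for ar and -0.007 to 0.133 for crhb. The cause of these changes was not tested. The genes lhb, pgr, mc2r and pomcb had at most 31 counts in any library, which limits the precision of their values.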
